A study of Mus musculus with 16 samples.

Results

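OSCK is a line of mouse induced pluripotent stem (iPS) cells, and it was compared here with mouse embryonic fibroblasts (MEFs), the kind of cell from which such lines are made. The 2 OSCK arrays and the 4 MEF arrays, 2 of Actin-GFP MEFs and 2 of Pou5f1-GFP MEFs, were taken by their titles from a series of 16 arrays in 8 groups. The series set iPS lines that were reprogrammed with Esrrb beside embryonic stem (ES) cells and MEFs. OSCK is the only line of the series without an E in its name. Its letters usually denote Oct4 (Pou5f1), Sox2, c-Myc and Klf4, but the labels do not spell them out, and the labels do not name the MEFs from which OSCK came.

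For OSCK the culture held feeder MEFs, stopped with mitomycin C, and 15% fetal bovine serum and LIF, a cytokine that holds mouse stem cells in the undifferentiated state, and feeder RNA can be part of the RNA measured. The same medium and feeders were used for the R1 ES cells and for OSCE 8, an Esrrb line, which lay on the same slides and are set beside OSCK where they help to read a value. Both types of MEF were grown with 15% serum and gentamicin, and the labels name neither feeders nor LIF for them. A transgene for green fluorescent protein (GFP) was driven by an Actin promoter in Actin-GFP MEFs and by the Pou5f1 promoter in Pou5f1-GFP MEFs. The labels give each group 2 biological replicates. OSCK is 1 line, and nothing says whether the MEF replicates came from separate embryos, so p-values measure the spread between these samples.

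Reprogramming switches on a network of transcription factors around Oct4, Sox2 and Nanog that keep each other active in pluripotent cells. Fibroblasts are mesenchymal cells that secrete collagen and other matrix, pull on it with actin stress fibres, and keep a record of their place in the embryo in the Hox genes they express. On the way to a pluripotent state they pass through a mesenchymal-to-epithelial transition, in which they gain E-cadherin and cell junctions, and their cell cycle, chromatin and metabolism are rebuilt.

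Values below are normalized probe intensities on the log2 scale, so that a difference of 1 is a 2-fold change, and each gene is read by its brightest probe. A detection p under 0.01 marked a probe as above background, and levels near 4 to 5 are at background. Fold changes set OSCK over the mean of the MEFs, with the log2 difference and, after ±, its standard error. Where every array of the lower group was below background, only a lower bound is known, written as at least so many fold. A gene was called at a limma adjusted p under 0.05, and rose, fell, higher and lower are used of OSCK relative to MEFs unless another group is named.

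Of 15642 genes tested, 9624 were called (61.5%), 4657 higher (29.8%) and 4967 lower (31.8%) in OSCK, and 3653 of them differed by at least 2-fold. Within each of the 2 slides OSCK could be set against MEFs of that slide, and 9622 of the 9624 called genes had the same sign on both. The calls were made from these same arrays, which nearly ensures such a count, so it is no independent check. The slide is also the replicate number, and with it as a block in the fit 10356 genes were called. With 1 mean per line or type of MEF in place of arrays, which sets the spread between lines against the difference, 4661 genes were called. The median difference of all genes was 0.02. When arrays were scaled to 1 median in place of quantiles it was -0.09, and 37.1% of the calls were higher in OSCK, against 48.4% with quantiles, so small shifts depend on the scaling. OSCK arrays correlated across genes with each other at r = 0.995, with MEF arrays at 0.882 to 0.887, with ES arrays at 0.974 to 0.977 and with OSCE 8 arrays at 0.976 to 0.978, where genes are not independent replicates.

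The labels were checked against markers. Of 6 markers of pluripotent cells tested, 6 were higher in OSCK, and their summed intensity was 15158 and 15486 in OSCK, against 144 to 166 over the MEF arrays. Of 10 fibroblast markers, 9 were lower in OSCK, and the exception was Vim. Their summed intensity was 21168 and 22585 in OSCK and 43512 to 48224 in MEFs, and it was 15247 to 17938 in ES cells and 18572 to 19619 in OSCE 8. Vim, with a mean of 14.02 in OSCK and 14.25 in MEFs, made up most of the OSCK sum. The sums therefore understate the fall of the 9 markers that were lower. The part of feeder RNA in these values was not tested, and in bulk RNA fewer cells of a type and less RNA per cell cannot be told apart.

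The fitted difference was largest for Trh, which encodes the precursor of thyrotropin-releasing hormone. Its level was 14.04 and 13.95 in OSCK, against 4.85 and 4.68 in Actin-GFP MEFs and 4.73 and 4.84 in Pou5f1-GFP MEFs, a difference of at least 542-fold. The MEF arrays were all at background, and ES cells of the same slides read 12.83 and 12.90. Dnmt3l, a cofactor of the de novo DNA methyltransferases, read 13.10 and 13.05 in OSCK, against 4.87 and 4.83 in Actin-GFP MEFs and 4.32 and 4.41 in Pou5f1-GFP MEFs. It was at least 287-fold higher. Esrrb, an orphan nuclear receptor of the pluripotency network, read 12.40 and 12.40 in OSCK, against 4.39 and 4.28 in Actin-GFP MEFs and 4.30 and 4.33 in Pou5f1-GFP MEFs, at least 179-fold higher. In all 3 genes no MEF array came near an OSCK array.

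The other 9 of the 12 largest rises by fitted difference comprised the chromatin protein gene Dppa4 (at least 132-fold), the Nodal antagonist gene Lefty2 (at least 122-fold), the uridine phosphorylase gene Upp1 (at least 142-fold), the RNA-binding protein gene L1td1 (at least 112-fold) and the F-box gene Fbxo15 (157-fold). The transcription factor gene Tfcp2l1 (142-fold), the oocyte gene Ooep (137-fold), Pou5f1 (128-fold) and Nanog (108-fold) completed them. The largest adjusted p of the 12 was 1.36e-14. For 7 of the 12 every MEF array was at background and only a bound is known, and for Fbxo15, Tfcp2l1 and Pou5f1 1 of the 4 MEF arrays was above it, so the order of these genes is not known. The 12 were selected as the largest changes among called genes whose OSCK and MEF arrays do not overlap. Their size and their lack of overlap are therefore a description. Of all 15642 genes tested, 10414 (66.6%) had no overlap.

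The largest fitted fall was in Igfbp5, a binding protein of insulin-like growth factors. It read 5.98 and 6.06 in OSCK, against 12.66 and 12.58 in Actin-GFP MEFs and 13.18 and 13.20 in Pou5f1-GFP MEFs, and was 118-fold lower (log2 -6.88 ± 0.14). Eln, which encodes elastin, read 4.97 and 5.10 in OSCK, against 8.98 and 9.26 in Actin-GFP MEFs and 11.07 and 11.17 in Pou5f1-GFP MEFs. It was 34-fold lower (log2 -5.09 ± 0.12), with 1 of the 2 OSCK arrays above background, and the types of MEF also differed, by -2.0 on log2 for Actin-GFP minus Pou5f1-GFP (adjusted p = 2.54e-07). Dcn, which encodes the collagen-binding proteoglycan decorin, read 6.67 and 7.02 in OSCK, against 11.83 and 11.98 in Actin-GFP MEFs and 11.68 and 12.02 in Pou5f1-GFP MEFs, and was 32.7-fold lower (log2 -5.03 ± 0.13). The arrays of OSCK and of MEFs lay far apart for all 3 genes, which were picked from genes without overlap.

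Among the other 9 of the 12 largest falls were the growth factor gene Ptn (33.7-fold), the tendon gene Tnmd (25-fold), the elastic fibre gene Mfap4 (29.2-fold) and the growth factor gene Igf1 (at least 19.7-fold). The fibroblast membrane protein gene Lrrc15 (36.5-fold), the calpain family gene Capn6 (at least 31.1-fold), the imprinted noncoding RNA H19 (27.8-fold), the Gag-like gene Rtl3 (at least 18.9-fold) and Srpx (21.8-fold) were also lower. The largest adjusted p of these 12 falls was 4.09e-12. By the fitted difference 91 genes were higher by at least 16-fold and 25 were lower by as much.

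**Figure D1:**
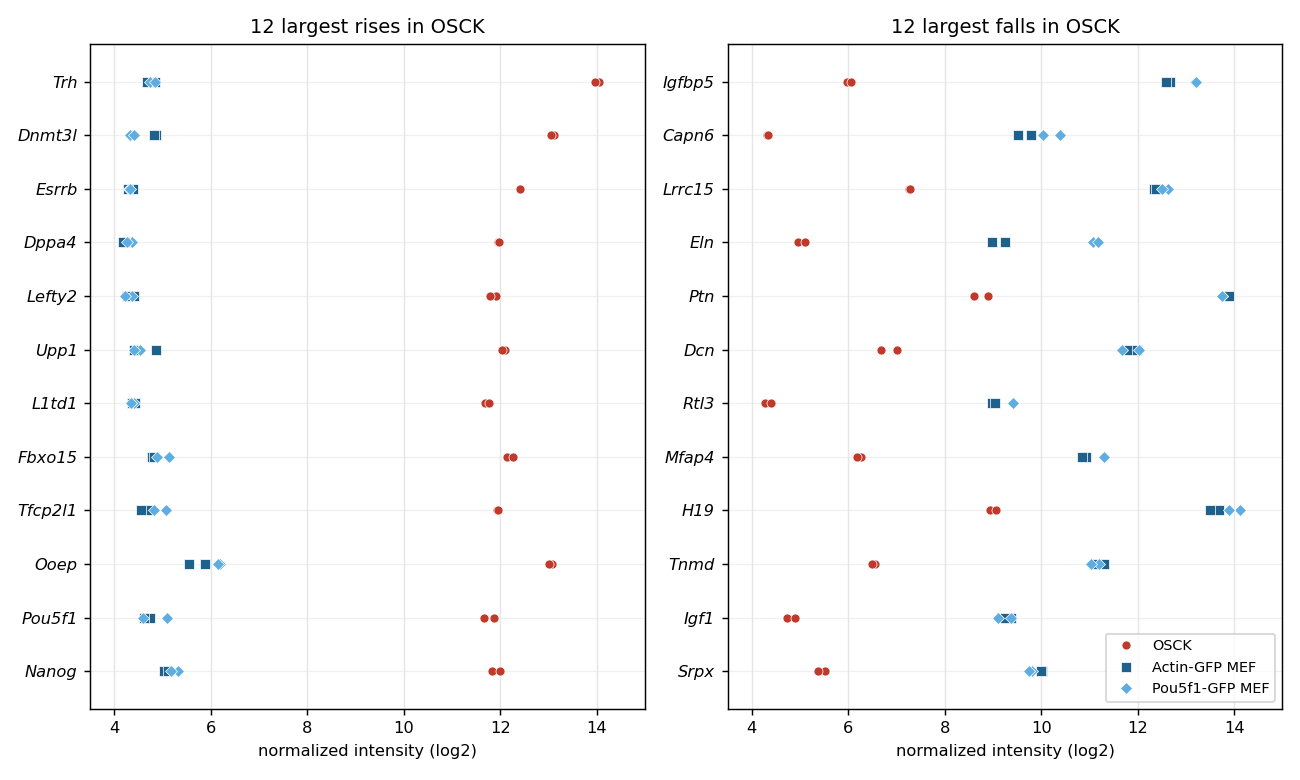
Normalized intensity (log2, x axis) on each of the 2 OSCK arrays (circles), 2 Actin-GFP MEF arrays (squares) and 2 Pou5f1-GFP MEF arrays (diamonds) for the 12 largest rises (left) and the 12 largest falls (right). The genes were picked from those without overlap, so the OSCK arrays lie right of every MEF array for the rises and left for the falls. The MEF arrays of Trh, at 4.68 to 4.85, are at background.

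Of the 4 factors for which the line's letters commonly stand, Pou5f1, Sox2 and Klf4 were higher and Myc was not called. Pou5f1, the POU factor at the centre of the network, read 11.86 and 11.65 in OSCK, against 4.74 and 4.61 in Actin-GFP MEFs and 5.08 and 4.59 in Pou5f1-GFP MEFs. It was 128-fold higher (log2 7.0 ± 0.14), but only 1 of the 4 MEF arrays was above background, so the size is uncertain. Against Actin-GFP MEFs, both at background, it was at least 114-fold higher. Sox2, its partner on DNA, read 8.12 and 8.08 in OSCK, against 4.56 and 4.76 in Actin-GFP MEFs and 5.03 and 4.79 in Pou5f1-GFP MEFs, and was 9.94-fold higher (log2 3.31 ± 0.13), again with 1 of the 4 MEF arrays above background. A dimmer second probe of Sox2 differed by 1.63 on log2, so both were higher and the size is uncertain. Klf4, a zinc finger factor that fibroblasts also express, read 9.21 and 9.40 in OSCK, against 8.34 and 8.64 in Actin-GFP MEFs and 7.76 and 8.21 in Pou5f1-GFP MEFs, and was 2.09-fold higher (log2 1.06 ± 0.16) with an adjusted p of 2.58e-05. Myc, the growth-promoting factor, read 6.13 and 5.91 in OSCK, against 5.93 and 6.03 in Actin-GFP MEFs and 5.65 and 5.90 in Pou5f1-GFP MEFs. Its arrays overlapped and its difference of 0.14 ± 0.15 had an adjusted p of 0.45. The probes cannot tell a gene of the cell from an integrated copy unless they lie outside the copied part, and where they lie was not determined here.

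Nanog, the homeodomain factor that is not among these letters, read 11.83 and 12 in OSCK, against 5.03 and 5.10 in Actin-GFP MEFs and 5.32 and 5.18 in Pou5f1-GFP MEFs, and was 108-fold higher (log2 6.76 ± 0.12). Its other 2 probes were higher in OSCK as well, by 4.43 and 5.45. Nanog carries a composite Oct-Sox element, the kind of site that Oct4 and Sox2 bind side by side. The letters CATTGT and ATGCAAA with 1 base between them, searched on both strands of the RefSeq promoter windows (GRCm38.p6, 250 bases before to 50 bases after the annotated start), occurred in the window of 1 of 27025 genes (0.0037%), which was Nanog. The window is shown because it holds that match; it lies at chr6:122707239-122707538 on the plus strand, and the capitals mark the match, 75 to 62 bases before the start.
Nanog: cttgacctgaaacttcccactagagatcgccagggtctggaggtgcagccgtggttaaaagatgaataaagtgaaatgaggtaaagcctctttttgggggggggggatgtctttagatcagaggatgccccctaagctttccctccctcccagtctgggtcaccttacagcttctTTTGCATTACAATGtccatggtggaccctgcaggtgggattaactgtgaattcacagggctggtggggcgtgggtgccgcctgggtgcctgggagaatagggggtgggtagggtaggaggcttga
No match in another window says only that these letters are not within it.

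Genes of the naive state of pluripotency rose with the core. Of 12 such transcription factors, 11 were on the array and 10 passed the filter on dim probes, of which 9 rose and 1 fell, beside 29.8% and 31.8% of all genes. Of the 10, 4 were below background on every MEF array and could hardly fall. Zfp42, a zinc finger marker of ES cells, read 10.10 and 10.53 in OSCK, against 4.53 and 4.33 in Actin-GFP MEFs and 4.40 and 4.40 in Pou5f1-GFP MEFs, at least 42.4-fold higher. Sall4, a zinc finger factor that acts with Oct4, read 9.09 and 8.98 in OSCK and was at least 17.4-fold higher. The exception was Tbx3, a T-box factor, which read 7.36 and 7.40 in OSCK, against 7.65 and 7.67 in Actin-GFP MEFs and 7.80 and 7.75 in Pou5f1-GFP MEFs, and was 1.26-fold lower (log2 -0.34 ± 0.10) with OSCK below every MEF array. It was not called without OSCK replicate 1 (-0.32).

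All 18 tested cofactors and RNA-binding proteins of pluripotent cells rose, 14 of them from below background on all MEF arrays. These 14 passed the filter on dim probes only through other groups, so they could hardly fall. Their median difference was 4.73, or 4.46 with genes below background set at their bound, against 0.02 for all genes. Gdf3, a TGF-beta family ligand, was at least 74.5-fold higher and the threonine dehydrogenase gene Tdh, whose enzyme feeds one-carbon metabolism in mouse ES cells, was at least 49.7-fold higher. Tdh read 10.28 and 10.82 in OSCK, against 4.25 and 4.32 in Actin-GFP MEFs and 4.17 and 4.18 in Pou5f1-GFP MEFs. Both OSCK arrays lay far above the MEF arrays. Dppa3, a maternal factor that protects DNA methylation in the zygote, read 9.44 and 9.29 in OSCK and was at least 21.9-fold higher.

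Of 6 tested surface markers, 5 rose: the E-cadherin gene Cdh1 (at least 11.1-fold), the adhesion molecule gene Pecam1 (at least 4.92-fold), the receptor tyrosine kinase gene Kit (6.76-fold) and the alkaline phosphatase gene Alpl (5.6-fold) were among them. The exception was Fut4, the gene of an enzyme that can make the SSEA1 epitope. Fut4 was below background on every OSCK and MEF array at the threshold used, and the epitope itself was not measured. Over the whole pluripotency list of 44 genes, 37 were tested, 35 rose, 1 fell and 1 was not called. Of the 37, 21 were below background on all MEF arrays and could hardly fall.

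**Figure D2:**
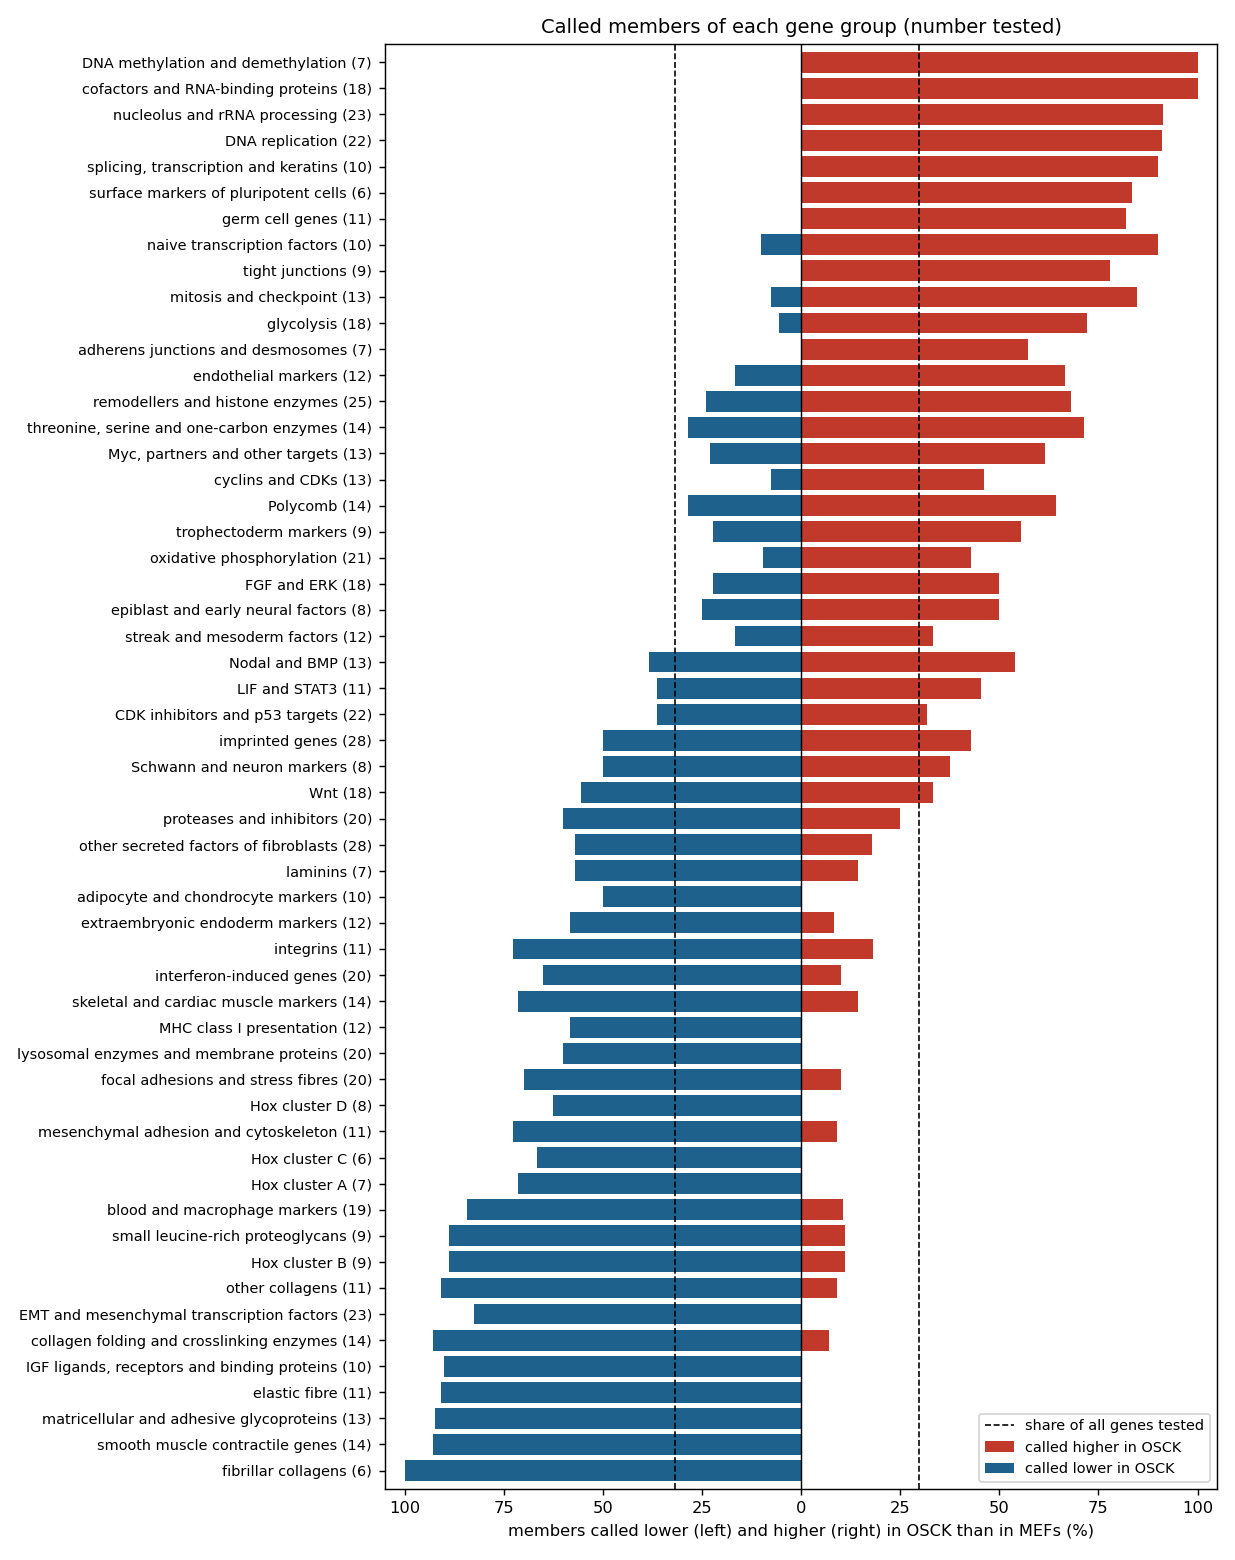
Share of the tested members of each gene group that were called higher in OSCK than in MEFs (right, %) and lower (left, %), with the number tested in brackets, for groups with at least 5 tested members. Dashed lines mark the share of all 15642 genes, 29.8% higher and 31.8% lower; fibrillar collagens lie at one end with 6 of 6 lower and the pluripotency cofactors at the other with 18 of 18 higher.

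Genes of epithelial junctions rose in OSCK. Of 26 tested genes of the epithelial list, 20 rose and 0 fell. Of the 26, 15 were below background on all MEF arrays and could hardly fall. Cdh1 read 8.21 and 8.57 in OSCK, against 4.55 and 4.36 in Actin-GFP MEFs and 4.47 and 4.44 in Pou5f1-GFP MEFs. The OSCK arrays lay clear of the MEF arrays, all of which were at background. The claudin gene Cldn4, a tight junction strand protein, was 38.1-fold higher (log2 5.25 ± 0.13), and the desmosomal cadherin gene Dsg2 was at least 8.6-fold higher. Esrp1, which sets epithelial splicing, read 8.68 and 8.53 in OSCK and was at least 12.9-fold higher. Grhl2, a transcription factor of epithelia, was at least 8.36-fold higher.

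Of the 6 genes that were not called, 5 encode junction proteins. The beta-catenin gene Ctnnb1 differed by -0.25 ± 0.14, the alpha-catenin gene Ctnna1 by -0.13 ± 0.08, the scaffold gene Tjp1 by -0.09 ± 0.33, the junctional adhesion gene F11r by 0.09 ± 0.23 and the plakophilin gene Pkp2 by 0.24 ± 0.14. Keratins gave a mixed picture. Krt8 read 7.37 and 7.21 in OSCK, against 4.95 and 5.02 in Actin-GFP MEFs and 6.13 and 6.18 in Pou5f1-GFP MEFs, and was 3.29-fold higher (log2 1.72 ± 0.14), while Krt19 differed by -0.06 ± 0.13 and was not called.

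Transcription factors of mesenchyme fell. Of 23 tested, 19 fell and 0 rose, with a median difference of -1.71, beside 31.8% of all genes that fell. Osr2, an odd-skipped zinc finger factor of connective tissue, read 6.92 and 7.07 in OSCK, against 10.14 and 10.17 in Actin-GFP MEFs and 11.12 and 10.95 in Pou5f1-GFP MEFs, and was 12.2-fold lower (log2 -3.60 ± 0.11). Twist2, a basic helix-loop-helix factor that holds mesenchymal cells undifferentiated, read 7.78 and 7.69 in OSCK, against 10.84 and 10.68 in Actin-GFP MEFs and 10.51 and 10.60 in Pou5f1-GFP MEFs, and was 7.56-fold lower (log2 -2.92 ± 0.10). Runx1 was 6.77-fold lower (log2 -2.76 ± 0.16), the homeobox gene Alx4 at least 4.97-fold lower and the cartilage factor Sox9 5.24-fold lower (log2 -2.39 ± 0.09). The OSCK arrays lay below all MEF arrays for these genes. Among the 4 that were not called were Osr1, Lhx9 and Foxc2, and in Osr1 the probes disagreed: the brightest differed by 0.38 and another by -2.29. Foxc2 (-0.63), Lhx9 (-0.50) and Osr1 (0.54) were called without OSCK replicate 1, and Osr1 also without Pou5f1-GFP MEF replicate 2 (0.46). With the slide as a block Foxc2 (-0.46) and Osr1 were called.

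Adhesion and cytoskeletal genes of mesenchyme fell less evenly, 8 of 11 lower and 1 higher. Fap, a membrane protease of activated fibroblasts, read 4.46 and 5.11 in OSCK, against 7.70 and 8.35 in Actin-GFP MEFs and 8.35 and 8.84 in Pou5f1-GFP MEFs, and was 11.5-fold lower (log2 -3.52 ± 0.22). The receptor gene Pdgfra was 11-fold lower (log2 -3.47 ± 0.12). Thy1, a surface protein by which fibroblasts are sorted, read 11.65 and 11.61 in OSCK, against 12.37 and 12.25 in Actin-GFP MEFs and 12.37 and 12.38 in Pou5f1-GFP MEFs, and was only 1.64-fold lower (log2 -0.71 ± 0.11). The hyaluronan receptor gene Cd44 was 1.48-fold lower (log2 -0.57 ± 0.13), and as a mean over its probes it was not called (-0.15). Vim, the intermediate filament gene of mesenchyme, read 14.07 and 13.96 in OSCK, against 14.24 and 14.21 in Actin-GFP MEFs and 14.33 and 14.23 in Pou5f1-GFP MEFs, and was not called (adjusted p = 0.115), except with the slide as a block (-0.23) or as a mean over its probes (-0.28). Its levels in the same slides' ES cells, 13.86 and 13.60, and in OSCE 8, 13.89 and 13.82, lay below the MEF arrays by a little more. S100a4, also known as fibroblast-specific protein, went against the list and was 1.92-fold higher (log2 0.94 ± 0.17).

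The extracellular matrix list had the largest share of falls among the 29 lists, with 59 of 64 tested genes lower, 3 higher and 2 not called. All 6 fibrillar collagens fell. Col1a1, the main collagen of connective tissue, read 10.44 and 10.14 in OSCK, against 13.11 and 13.01 in Actin-GFP MEFs and 13.32 and 13.40 in Pou5f1-GFP MEFs, and was 7.56-fold lower (log2 -2.92 ± 0.20). ES cells read 10.18 and 10.01 and OSCE 8 10.15 and 9.99, close to OSCK. Col1a2 was 15.1-fold lower (log2 -3.92 ± 0.25), Col3a1 9.57-fold lower (log2 -3.26 ± 0.27) and Col5a2 20.4-fold lower (log2 -4.35 ± 0.20). Col1a2 read 6.26 and 6.45 in OSCK, against 9.09 and 9.92 in Actin-GFP MEFs and 10.63 and 11.45 in Pou5f1-GFP MEFs, with wide gaps within each type of MEF and none that reached OSCK.

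Basement membrane collagens fell with them, Col4a1 by 7.18-fold and Col4a2 by 4.63-fold. Col18a1, which carries the endostatin fragment, was the exception among 11 other collagens and was 1.47-fold higher (log2 0.55 ± 0.10). Of 14 enzymes that fold and cross-link collagen, 13 fell, led by the lysyl oxidase gene Loxl2 (7.26-fold) and the collagen chaperone gene Serpinh1 (5.57-fold), and Loxl3 was 1.67-fold higher (log2 0.74 ± 0.11). Among the small leucine-rich proteoglycans, 8 of 9 fell. Lum, which spaces collagen fibrils, was 14-fold lower (log2 -3.81 ± 0.15), Ogn at least 15.2-fold lower and Prelp 1.29-fold higher (log2 0.36 ± 0.13). Prelp was not called without either OSCK array or without replicate 1 of either type of MEF (0.24 to 0.38), nor with median scaling (0.10).

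Elastic fibre genes fell in 10 of 11 tested cases. Mfap4 read 6.26 and 6.19 in OSCK, against 10.92 and 10.84 in Actin-GFP MEFs and 11.30 and 11.31 in Pou5f1-GFP MEFs. The fibrillin gene Fbn2 was 13.1-fold lower (log2 -3.71 ± 0.13) and Mfap2 9.19-fold lower (log2 -3.20 ± 0.10), and Mfap5 (0.24 ± 0.11) was not called. Among 13 matricellular and adhesive glycoproteins 12 fell. Sparc was 15.6-fold lower (log2 -3.96 ± 0.28), Postn 10.4-fold lower (log2 -3.37 ± 0.13), Tgfbi 9.32-fold lower (log2 -3.22 ± 0.11) and Thbs2 8.5-fold lower (log2 -3.09 ± 0.10). Fn1, which encodes fibronectin, read 12.22 and 12.09 in OSCK, against 12.30 and 12.21 in Actin-GFP MEFs and 12.32 and 12.17 in Pou5f1-GFP MEFs. The groups overlapped, and Fn1 was not called (adjusted p = 0.562), except as a mean over its probes (-0.30).

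**Figure D3:**
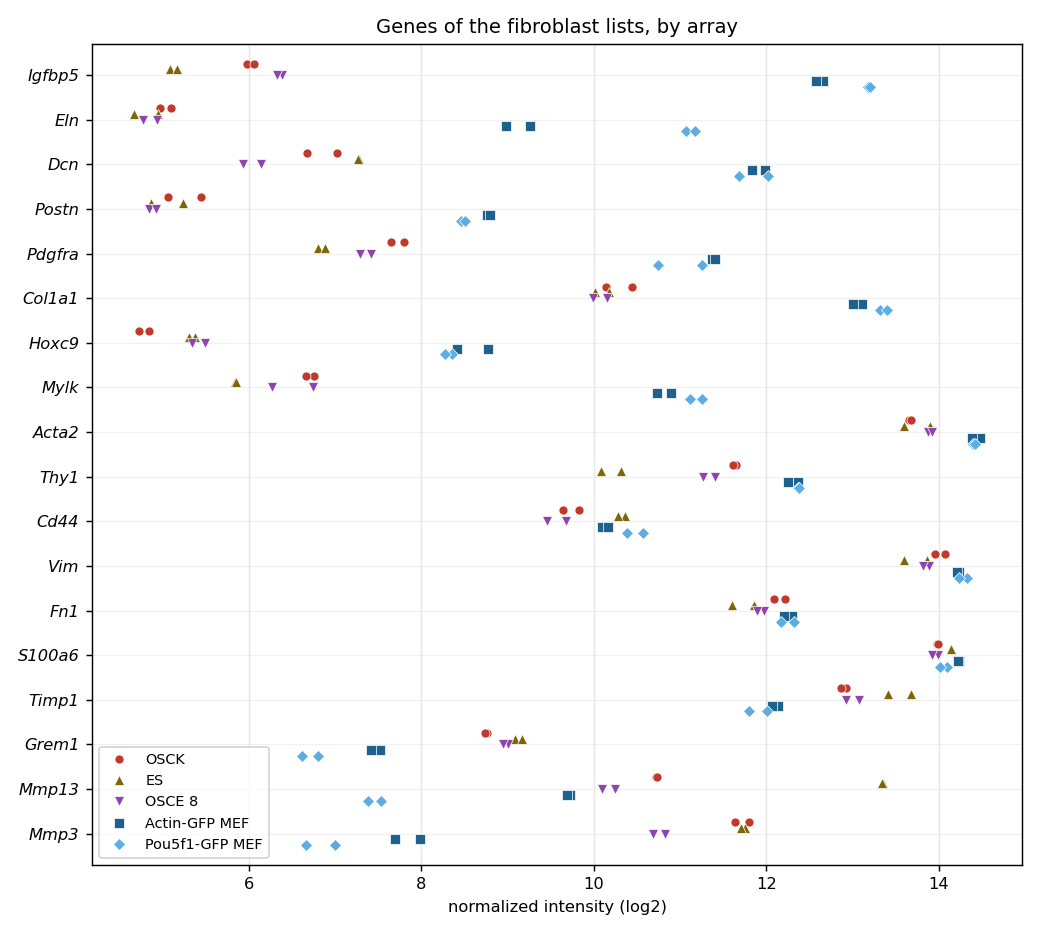
Normalized intensity (log2, x axis) of 18 genes of the fibroblast lists on each array of OSCK (circles), ES cells and OSCE 8 (triangles up and down) and MEFs (squares and diamonds), 2 arrays a group. Genes run from Igfbp5, with OSCK at 5.98 and 6.06 and MEFs at 12.58 to 13.20, through Vim, Fn1 and S100a6, where groups lie close, to Mmp3, with OSCK at 11.80 and 11.64 and MEFs at 6.66 to 7.98.

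Genes that turn the matrix over moved both ways. Of 20 tested proteases and inhibitors 12 fell and 5 rose. Mmp3, a stromelysin that cuts proteoglycans and fibronectin, read 11.80 and 11.64 in OSCK, against 7.98 and 7.69 in Actin-GFP MEFs and 7.0 and 6.66 in Pou5f1-GFP MEFs, and was 20.8-fold higher (log2 4.38 ± 0.12). The OSCK arrays lay above all MEF arrays, beside ES arrays at 11.75 and 11.71. The related stromelysin gene Mmp10 read 8.22 and 8.19 in OSCK and 5.10 to 5.54 over the MEF arrays, and was 7.46-fold higher (log2 2.90 ± 0.10). The collagenase gene Mmp13 read 10.72 and 10.73 in OSCK, against 9.72 and 9.69 in Actin-GFP MEFs and 7.38 and 7.53 in Pou5f1-GFP MEFs, so that the 2 types of MEF differed by 2.25 (adjusted p = 1.38e-07), and it was 2.03-fold higher in OSCK than in Actin-GFP MEFs and 9.67-fold higher than in Pou5f1-GFP MEFs. The inhibitor genes Timp1 (1.85-fold) and Serpine2 (1.33-fold) also rose, though Serpine2 was not called without OSCK replicate 1 (0.35). Against these, the aggrecanase gene Adamts5 (9.35-fold) and the procollagen protease gene Adamts2 (5.71-fold) fell. Timp1 read 12.92 and 12.87 in OSCK and 13.68 and 13.41 in ES cells, which were also grown on feeders, and the part of feeder cells in these values was not tested.

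Insulin-like growth factors and their binding proteins fell in 9 of 10 tested genes. Igf1 read 4.74 and 4.89 in OSCK, against 9.38 and 9.24 in Actin-GFP MEFs and 9.38 and 9.10 in Pou5f1-GFP MEFs, below background in OSCK, and was at least 19.7-fold lower. Igf2 was 6.12-fold lower (log2 -2.61 ± 0.10) and Igfbp4 6.24-fold lower (log2 -2.64 ± 0.11). Igfbp2 read 10.03 and 10 in OSCK, against 8.95 and 9.18 in Actin-GFP MEFs and 10.70 and 10.65 in Pou5f1-GFP MEFs, so that OSCK lay between the 2 types of MEF, and it was not called. Among 28 other secreted factors of fibroblasts 16 fell and 5 rose. The chemokine gene Cxcl12 was 14.8-fold lower (log2 -3.89 ± 0.12) and the Wnt inhibitor gene Sfrp2 5.7-fold lower (log2 -2.51 ± 0.25). The BMP antagonist gene Grem1, with 8.76 and 8.74 in OSCK and 6.61 to 7.52 over the MEF arrays, was 3.17-fold higher (log2 1.67 ± 0.14), and the activin antagonist gene Fst was 2.11-fold higher (log2 1.07 ± 0.16).

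Receptors for the matrix differed by member. Of 11 integrins 8 fell and 2 rose, and of 7 laminins 4 fell and 1 rose. Itga8 (at least 3.02-fold), Itga11 (3.69-fold), a collagen receptor of fibroblasts, and Itga9 (2.64-fold) fell. Itga6, the laminin receptor of epithelia and stem cells, was 2.2-fold higher (log2 1.14 ± 0.11) and Itgb7 3.38-fold higher (log2 1.76 ± 0.13). Lama5, an alpha chain of basement membrane laminin, read 8.0 and 7.70 in OSCK, against 4.73 and 4.66 in Actin-GFP MEFs and 4.71 and 5.40 in Pou5f1-GFP MEFs. Its OSCK arrays lay above all MEF arrays and it was 7.87-fold higher (log2 2.98 ± 0.16), whereas the mesenchymal chain gene Lama2 was 3.54-fold lower (log2 -1.83 ± 0.15).

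The contractile apparatus fell in 27 of 34 tested genes. Mylk, the myosin light chain kinase gene, read 6.76 and 6.66 in OSCK, against 10.90 and 10.73 in Actin-GFP MEFs and 11.25 and 11.12 in Pou5f1-GFP MEFs, and was 19.6-fold lower (log2 -4.29 ± 0.15). Of 14 smooth muscle genes 13 fell, among them the gamma-actin gene Actg2 (5.6-fold), the calponin gene Cnn2 (5.46-fold) and the myosin light chain gene Myl9 (4.62-fold). Tagln was 3.45-fold lower (log2 -1.79 ± 0.16). Acta2, the actin by which myofibroblasts are known, read 13.66 and 13.68 in OSCK, against 14.48 and 14.38 in Actin-GFP MEFs and 14.40 and 14.42 in Pou5f1-GFP MEFs, and was 1.68-fold lower (log2 -0.75 ± 0.10), with no overlap. This is its brightest probe, and its probes disagreed in size: 2 dimmer ones, at 8.61 and 10.35 in OSCK against 11.18 and 12.89 in MEFs, differed by -2.57 and -2.54. Myocd, the cofactor of serum response factor in smooth muscle, was not called (0.09 ± 0.12).

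Serum response factor, a regulator of contractile genes, binds the CArG box. In RefSeq windows a CArG box, 10 letters that open with CC and close with GG around 6 letters that are each A or T, lay in 2 of 10 tested smooth muscle genes that have a window (20%) and in 1.81% of 27025 genes, on either strand, as a description. Both windows are shown, on GRCm38.p6 and with the CArG box in capitals. That of Cnn2 is chr10:79988350-79988649, plus strand, with the box 56 to 47 bases before the start, and that of Myl9 is chr2:156775214-156775513, plus strand, with the box 161 to 152 bases before it.
Cnn2: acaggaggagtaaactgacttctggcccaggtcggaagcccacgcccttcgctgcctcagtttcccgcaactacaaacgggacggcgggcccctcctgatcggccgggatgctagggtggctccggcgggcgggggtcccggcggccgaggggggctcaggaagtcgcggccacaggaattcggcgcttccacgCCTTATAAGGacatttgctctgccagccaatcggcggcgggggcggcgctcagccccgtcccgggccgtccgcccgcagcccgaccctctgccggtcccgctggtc
Myl9: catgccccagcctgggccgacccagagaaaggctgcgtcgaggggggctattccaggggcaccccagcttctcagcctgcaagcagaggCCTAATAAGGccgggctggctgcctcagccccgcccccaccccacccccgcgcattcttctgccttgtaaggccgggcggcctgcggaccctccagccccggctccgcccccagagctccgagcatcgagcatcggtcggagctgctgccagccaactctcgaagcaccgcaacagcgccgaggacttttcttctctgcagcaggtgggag
Cnn2 read 9.32 and 9.30 in OSCK, against 11.73 and 11.92 in Actin-GFP MEFs and 11.67 and 11.71 in Pou5f1-GFP MEFs, and Myl9 read 9.39 and 9.40 in OSCK, against 11.76 and 11.74 in Actin-GFP MEFs and 11.46 and 11.46 in Pou5f1-GFP MEFs. In both genes OSCK lay below every MEF array.

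Focal adhesion and stress fibre genes fell in 14 of 20 cases and rose in 2. The filamin gene Flna was 3.3-fold lower (log2 -1.72 ± 0.12), the adaptor genes Pdlim7 4.03-fold lower (log2 -2.01 ± 0.12) and Pdlim5 3.18-fold lower (log2 -1.67 ± 0.10), and the zyxin gene Zyx 3.21-fold lower (log2 -1.68 ± 0.17). The caveolin gene Cav2 (2.33-fold) and the LIM protein gene Csrp2 (1.64-fold) rose. The S100 gene S100a6, with 13.98 and 13.99 in OSCK and 14.02 to 14.24 over the MEF arrays, was not called, nor were Cav1 (0.17 ± 0.11), Pxn (0.21 ± 0.11) and S100a10 (-0.56 ± 0.25). S100a10 was called without replicate 1 of Actin-GFP MEFs (-0.77) or of Pou5f1-GFP MEFs (-0.73) and with the slide as a block.

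Hox genes, which hold the positional identity of fibroblasts, fell in 22 of 30 tested cases, with 1 higher and 7 not called. Of the 30, 9 were below background on both OSCK arrays and could hardly rise. Hoxc9 read 4.73 and 4.84 in OSCK, against 8.77 and 8.41 in Actin-GFP MEFs and 8.36 and 8.27 in Pou5f1-GFP MEFs, at least 11.2-fold lower. Hoxc8 was 8.03-fold lower (log2 -3.0 ± 0.10), Hoxc6 7.53-fold lower (log2 -2.91 ± 0.12), Hoxa5 7.02-fold lower (log2 -2.81 ± 0.14), Hoxd4 at least 3.94-fold lower and Hoxb2 5.37-fold lower (log2 -2.43 ± 0.11). The exception was Hoxb1, the gene of the cluster's 3' end, which read 5.73 and 5.44 in OSCK, against 4.74 and 5.09 in Actin-GFP MEFs and 5.29 and 4.66 in Pou5f1-GFP MEFs, and was 1.56-fold higher (log2 0.64 ± 0.20). It lay close to background in the MEFs and was not called without OSCK replicate 1 (0.50). The genes not called included Hoxa11, Hoxd10, Hoxd11, Hoxd13 and Hoxc13, of the 5' ends of their clusters, as well as Hoxc4. Hoxa11 was called without OSCK replicate 2 (-0.59) or Actin-GFP MEF replicate 1 (-0.50), Hoxd10 without replicate 2 of either type of MEF (-0.39), and both with the slide as a block (-0.38 and -0.30). Between the types of MEF, 6 of the 30 Hox genes were higher in Actin-GFP MEFs and 4 in Pou5f1-GFP MEFs, beside 5.32% and 6.16% of all genes.

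DNA replication genes rose in 20 of 22 tested cases and fell in 0, with a median difference of 1.51. Mcm10, an initiation factor, read 9.14 and 8.87 in OSCK, against 5.98 and 5.67 in Actin-GFP MEFs and 6.25 and 6.32 in Pou5f1-GFP MEFs, and was 7.71-fold higher (log2 2.95 ± 0.13). Mcm2 was 5.22-fold higher (log2 2.39 ± 0.12), the licensing factor gene Cdt1 4.32-fold higher (log2 2.11 ± 0.10) and the clamp loader gene Rfc5 4.19-fold higher (log2 2.07 ± 0.12). Rrm1, a subunit of ribonucleotide reductase, was not called (0.08 ± 0.11). The letters TTTGGCGC, TTTCCCGC or TTTGCCGC, forms of the E2F site, were searched on either strand of the RefSeq windows. They lay in 3.86% of the 9908 tested genes with a window and in 2.29% of all 27025 genes. Among tested replication genes with a window they lay in 6 of 16 (37.5%). A pair of these windows is shown on GRCm38.p6, with the match in capitals, since E2F sites are known from this class of gene. That of Cdt1 is chr8:122567765-122568064, plus strand, matched 32 to 39 bases after the start, and that of Mcm5, a subunit of the replicative helicase, is chr8:75109259-75109558, plus strand, matched 149 to 142 bases before it.
Cdt1: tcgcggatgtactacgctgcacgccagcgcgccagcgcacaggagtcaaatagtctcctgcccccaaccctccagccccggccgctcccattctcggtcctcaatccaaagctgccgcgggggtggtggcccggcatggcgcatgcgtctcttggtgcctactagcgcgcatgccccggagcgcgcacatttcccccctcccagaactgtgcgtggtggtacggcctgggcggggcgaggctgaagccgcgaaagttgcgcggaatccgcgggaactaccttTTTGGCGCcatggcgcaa
Mcm5: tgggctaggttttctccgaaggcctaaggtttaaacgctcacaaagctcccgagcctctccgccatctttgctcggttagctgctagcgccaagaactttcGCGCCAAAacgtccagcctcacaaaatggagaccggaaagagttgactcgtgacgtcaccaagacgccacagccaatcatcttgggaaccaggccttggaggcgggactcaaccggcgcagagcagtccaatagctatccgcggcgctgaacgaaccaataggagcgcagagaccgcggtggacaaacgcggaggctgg
Cdt1 read 11.12 and 11.23 in OSCK, against 8.99 and 9.06 in Actin-GFP MEFs and 9.03 and 9.16 in Pou5f1-GFP MEFs, with OSCK above every MEF array, and 20 genes of its list moved the same way.

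Cyclins and mitotic genes rose less evenly. Of 13 cyclins and kinases 6 rose and 1 fell. Ccne1, the cyclin of the entry into S phase, read 10.99 and 10.79 in OSCK, against 7.72 and 8.07 in Actin-GFP MEFs and 8.15 and 7.86 in Pou5f1-GFP MEFs, and was 7.67-fold higher (log2 2.94 ± 0.12). Ccnb1 was 3.42-fold higher (log2 1.77 ± 0.15) and Ccnd1 3.36-fold higher (log2 1.75 ± 0.12), and Ccnd2 was 1.25-fold lower (log2 -0.33 ± 0.13), which was not called without either OSCK array or without replicate 1 of either type of MEF (-0.27 to -0.33); a dimmer probe of Ccnd2 differed by -1.52. Of 13 mitotic genes 11 rose and 1 fell, led by the checkpoint gene Mad2l1 (3.12-fold) and Cdc20 (3.07-fold). Mki67, the proliferation marker, went the other way and was 1.34-fold lower (log2 -0.43 ± 0.10), with 8.88 and 8.87 in OSCK and 9.07 to 9.54 over the MEF arrays, but it was not called as a mean over its probes (-0.11).

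Inhibitors of the cycle and p53 targets moved both ways, with 7 of 22 higher and 8 lower, or 7 and 6 without OSCK replicate 1, shares near the 29.8% and 31.8% of all genes. Cdkn1c, an imprinted CDK inhibitor gene, read 8.78 and 8.69 in OSCK, against 12.18 and 12.26 in Actin-GFP MEFs and 13.20 and 13.07 in Pou5f1-GFP MEFs, and was 15.4-fold lower (log2 -3.94 ± 0.12). Cdkn2a, the Ink4a/Arf locus that limits the growth of MEFs in culture, rose against it: it read 10.46 and 10.14 in OSCK, against 8.06 and 8.26 in Actin-GFP MEFs and 7.33 and 7.23 in Pou5f1-GFP MEFs, and was 5.97-fold higher (log2 2.58 ± 0.13). Trp53 itself was 2.19-fold higher (log2 1.13 ± 0.15), and the target genes Pmaip1 (2.4-fold), Bax (1.76-fold) and Mdm2 (1.69-fold) were higher, while Gadd45g (2.92-fold) and the inhibitor gene Cdkn2c (3.19-fold) were lower. Rbl1 was called higher on its brightest probe (0.36), but another probe differed by -0.77, and it was not called without OSCK replicate 1 (0.26) or Pou5f1-GFP MEF replicate 2 (0.33).

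Genes of the nucleolus and of ribosome production rose in 21 of 23 tested cases and fell in 0. The nucleolin gene Ncl read 10.64 and 10.77 in OSCK, against 8.40 and 8.47 in Actin-GFP MEFs and 8.48 and 8.63 in Pou5f1-GFP MEFs, and was 4.63-fold higher (log2 2.21 ± 0.11). Nhp2 was 5.61-fold higher (log2 2.49 ± 0.09), Rrp9 5.34-fold higher (log2 2.42 ± 0.10) and Nolc1 4.25-fold higher (log2 2.09 ± 0.14). Rrs1 (0.67 ± 0.28) and Utp20 (-0.02 ± 0.15) were not called, but Rrs1 was called without OSCK replicate 1 (0.95) or replicate 2 of either type of MEF (0.77 and 0.81) and with the slide as a block. Of the Myc family and partners, Mycl (3.49-fold) rose and the antagonists Mxd1 (at least 1.58-fold), Mxd3 (at least 1.67-fold) and Mxd4 (2.23-fold) fell, beside Myc itself, which was not called. The transferrin receptor gene Tfrc, with 11.26 and 11.22 in OSCK and 8.40 to 8.60 over the MEF arrays, was 6.81-fold higher (log2 2.77 ± 0.12).

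All 7 tested genes of DNA methylation and demethylation rose. Dnmt3b, a de novo methyltransferase, read 13.16 and 13.05 in OSCK, against 7.26 and 7.14 in Actin-GFP MEFs and 7.82 and 7.47 in Pou5f1-GFP MEFs, and was 51.4-fold higher (log2 5.68 ± 0.14). Tet1, which oxidises 5-methylcytosine, read 10.73 and 10.57 in OSCK, against 6.56 and 6.09 in Actin-GFP MEFs and 6.30 and 6.62 in Pou5f1-GFP MEFs, and was 19.1-fold higher (log2 4.26 ± 0.14). Uhrf1, which directs maintenance methylation, was 2.67-fold higher (log2 1.42 ± 0.10). The OSCK arrays were above all MEF arrays in each.

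Polycomb genes moved both ways, with 9 of 14 higher and 4 lower. Cbx7, the chromodomain gene of ES cell Polycomb complexes, read 10.39 and 10.49 in OSCK, against 4.94 and 5.22 in Actin-GFP MEFs and 4.78 and 5.19 in Pou5f1-GFP MEFs, and was 42.4-fold higher (log2 5.41 ± 0.12). Its paralogs Cbx6 (2.07-fold) and Cbx8 (at least 1.39-fold) were lower, as was Bmi1 (2.48-fold), while Pcgf6 (5.49-fold), Phc1 (4.89-fold) and Mtf2 (3.73-fold) were higher. Of 25 remodellers and histone enzymes 17 rose and 6 fell. Arid3b was 8.54-fold higher (log2 3.09 ± 0.18), Chd7 5.08-fold higher (log2 2.34 ± 0.12), the demethylase gene Kdm3a 4.25-fold higher (log2 2.09 ± 0.19) and Trim28, a silencer of endogenous retroviruses, 3.12-fold higher (log2 1.64 ± 0.10). The SWI/SNF subunit genes Arid1b (2.63-fold), Smarcc1 (2.27-fold), Smarcc2 (2.17-fold) and Smarca2 (at least 1.08-fold) were lower, and Smarca4 (0.26 ± 0.15) was not called. The probes of Smarcc1 disagreed, and a dimmer one was higher in OSCK by 0.38.

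Glycolytic genes rose in 13 of 18 tested cases and fell in 1. The glucose transporter gene Slc2a3 read 12.28 and 12.20 in OSCK, against 7.54 and 7.44 in Actin-GFP MEFs and 8.91 and 8.62 in Pou5f1-GFP MEFs. Its arrays lay far apart, with OSCK 17.3-fold higher (log2 4.11 ± 0.11). The hexokinase gene Hk2 was 5.17-fold higher (log2 2.37 ± 0.10) and the pyruvate dehydrogenase kinase gene Pdk1 5.34-fold higher (log2 2.42 ± 0.12). The phosphofructokinase gene Pfkp was 3.61-fold higher (log2 1.85 ± 0.12). The paralogs Hk1 (-0.01 ± 0.11) and Pfkm (0.13 ± 0.11) were not called, and the neuronal enolase gene Eno2 was 1.71-fold lower (log2 -0.78 ± 0.12). Oxidative phosphorylation had 9 of 21 genes higher and 2 lower, with a median difference of 0.217, but 5 higher with median scaling and 1 lower without any single array of OSCK or MEFs. The muscle isoform genes of cytochrome oxidase went apart, Cox7a1 2.99-fold higher (log2 1.58 ± 0.14) and Cox6a2 at least 3.76-fold lower.

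Of 14 tested enzymes of threonine, serine and one-carbon metabolism 10 rose and 4 fell. The glycine cleavage gene Gldc read 9.17 and 9.02 in OSCK and was at least 18.2-fold higher, and Tdh, described above, is of the same list. The cytosolic genes Shmt1 (7.04-fold) and Mthfd1 (6.03-fold) rose. The mitochondrial paralogs Shmt2 (1.66-fold) and Mthfd2 (1.81-fold) fell, and so did Phgdh (1.72-fold) and Psat1 (1.4-fold), which make serine from a glycolytic intermediate. The 4 falls were between -0.48 and -0.86 on log2, and a dimmer probe of Psat1 differed by -1.56. The other probe of Shmt2, at 7.96 in OSCK and 8.05 in MEFs, differed by only -0.09, so the fall of Shmt2 is uncertain.

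Signalling genes moved both ways, beside 29.8% of all genes that rose and 31.8% that fell. Of the 60 tested, 10 were below background on all MEF arrays and could hardly fall. In the LIF pathway 5 of 11 genes rose and 4 fell. Il6st, which encodes the shared receptor chain gp130, read 4.56 and 4.42 in OSCK, against 5.91 and 6.75 in Actin-GFP MEFs and 8.53 and 8.72 in Pou5f1-GFP MEFs, at least 5.67-fold lower, below background in OSCK. Its partner gene Lifr (-0.11 ± 0.16) was not called, Osmr, Jak2 and Stat3 were lower by 3.13-fold, 2.74-fold and 1.64-fold, and the target gene Pim3 was 4.03-fold higher (log2 2.01 ± 0.09). In the FGF pathway 9 of 18 rose and 4 fell. The ligand gene Fgf4 (at least 3.55-fold) and the ERK-responsive factor gene Etv5 (11.8-fold) rose, the receptor genes Fgfr1 (at least 1.27-fold) and Fgfr2 (2.41-fold) fell, and the immediate early gene Egr1 was 3.91-fold lower (log2 -1.97 ± 0.16). Fgfr1 was not called without OSCK replicate 1 (-0.47). A dimmer probe of Fgfr2 differed by 0.50 in the other direction.

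Of the Nodal and BMP list 7 of 13 rose and 5 fell. The ligand gene Nodal read 9.78 and 9.58 in OSCK and was at least 27.2-fold higher, and its antagonist gene Lefty1 was 42.2-fold higher (log2 5.40 ± 0.13). The BMP target genes Id2 (2.97-fold), Id3 (1.81-fold) and Id4 (2.4-fold) were lower, with the receptor genes Bmpr1a (2.28-fold) and Bmpr2 (2.03-fold), and Id1 (-0.17 ± 0.13) was not called. Of 18 Wnt genes 6 rose and 10 fell, beside 29.8% and 31.8% of all genes. Sp5, a direct target of beta-catenin, read 8.91 and 9.0 in OSCK and was at least 16.5-fold higher, and the receptor gene Fzd1 (6.2-fold) and the ligand genes Wnt9a (5.38-fold) and Wnt4 (at least 2.75-fold) were lower.

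Genes of the germ line rose in 9 of 11 tested cases and fell in 0, out of 22 listed. Besides Dppa3, the oncogene-related Tcl1 (at least 8.43-fold), the RNA-binding protein gene Dnd1 (at least 4.97-fold) and the egg coat gene Zp3 (at least 3.74-fold) were higher. The other 11 did not pass the filter on dim probes. Of the 11 tested, 7 were below background on all MEF arrays and could hardly fall. Of 12 tested markers of extraembryonic endoderm 1 rose and 7 fell, and among the falls were Gata6 (8.27-fold), a factor of that lineage that the MEFs also expressed, and Sparc, Col4a1, Col4a2 and Pdgfra, which other lists here hold too. Amn, a gene of visceral endoderm, was 2.53-fold higher (log2 1.34 ± 0.14). Gata4 (0.22 ± 0.14), Sox17 (0.09 ± 0.12), Foxa2 (0.12 ± 0.10) and Hnf4a (-0.01 ± 0.14) were not called. Among trophectoderm markers 5 of 9 rose and 2 fell, one of them Tfap2a (2.27-fold), with Tfap2c at 10.55 and 10.54 in OSCK, at least 49.5-fold higher; this factor is also made in ES cells, which read 10.76 and 10.86. Among streak and mesoderm factors 4 of 12 rose and 2 fell, the rises near the 29.8% of all genes. On all MEF arrays 3 of the 9 trophectoderm markers and 6 of these 12 factors were below background and could hardly fall. T (Brachyury), the factor of the primitive streak, read 7.10 and 6.75 in OSCK, against 4.58 and 4.72 in Actin-GFP MEFs and 4.51 and 4.81 in Pou5f1-GFP MEFs, at least 4.03-fold higher.

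Otx2 and Pou3f1, factors of the epiblast on its way to neural fate, read 8.50 and 8.29 and 7.99 and 7.74 in OSCK and were at least 11.2-fold and at least 7.75-fold higher, in a list of which 4 of 8 rose and 2 fell. Of the 8, 3 were below background on all MEF arrays and could hardly fall. Zic1, a zinc finger factor of neural tissue and of dermis, read 4.63 and 4.64 in OSCK, against 8.70 and 8.71 in Actin-GFP MEFs and 8.67 and 8.93 in Pou5f1-GFP MEFs, at least 13.8-fold lower.

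Imprinted genes, of which 1 parental copy is silent, were divided between 12 higher and 14 lower of 28 tested, beside 29.8% and 31.8% of all genes. H19 read 8.93 and 9.07 in OSCK, against 13.68 and 13.49 in Actin-GFP MEFs and 14.13 and 13.90 in Pou5f1-GFP MEFs, and was 27.8-fold lower (log2 -4.80 ± 0.17). Phlda2, silenced on the paternal copy, read 9.07 and 9.07 in OSCK and was at least 17.8-fold higher. Snrpn (10.4-fold) and Snurf (14.2-fold), which share a transcript and so are not independent, were higher, as was Gab1 (4.38-fold). Rian, a noncoding RNA of the Dlk1-Dio3 region, read 6.38 and 6.48 in OSCK, against 4.35 and 4.59 in Actin-GFP MEFs and 7.75 and 7.77 in Pou5f1-GFP MEFs, between the 2 types of MEF.

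Markers of blood cells and macrophages were present in the MEFs. Of 19 tested blood and macrophage markers 16 fell in OSCK and 2 rose, and 14 were higher in Actin-GFP than in Pou5f1-GFP MEFs. The summed intensity of 8 defining macrophage markers was 997 and 998 in OSCK, 8272 to 8530 in Actin-GFP MEFs and 2090 to 2112 in Pou5f1-GFP MEFs. Over the whole list the sums were 4231 and 4283 in OSCK, 14259 and 14692 in Actin-GFP MEFs and 4204 and 4259 in Pou5f1-GFP MEFs, so OSCK and Pou5f1-GFP MEFs were close. The bright gene Laptm5, one of the 2 rises, read 11.49 and 11.52 in OSCK, against 11.80 and 11.88 in Actin-GFP MEFs and 10.07 and 10.13 in Pou5f1-GFP MEFs. Of the 19 genes, 16 were lower in OSCK than in Actin-GFP MEFs and 13 than in Pou5f1-GFP MEFs. Lyz2, a lysozyme of macrophages, read 8.99 and 8.91 in OSCK, against 12.56 and 12.35 in Actin-GFP MEFs and 9.93 and 9.99 in Pou5f1-GFP MEFs. The complement gene C1qb read 4.99 and 5.11 in OSCK, against 8.28 and 8.36 in Actin-GFP MEFs and 8.20 and 7.70 in Pou5f1-GFP MEFs. The receptor gene Cd14 read 5.24 and 5.28 in OSCK, against 9.40 and 9.12 in Actin-GFP MEFs and 6.77 and 6.86 in Pou5f1-GFP MEFs. All 3 were lower in OSCK than in either type, and Csf1r and Tyrobp, 2 defining markers, were below background on both OSCK arrays. Fcer1g went the other way between the types, with 4.20 and 4.27 in Actin-GFP MEFs and 8.63 and 8.46 in Pou5f1-GFP MEFs. With 1 mean per line or type, 5 of the 16 falls were called. The part of such cells in other falls was not tested.

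Many interferon-induced genes were also lower in OSCK, and for genes of antigen presentation the counts differed by type of MEF. Of 20 tested interferon-induced genes 13 fell and 2 rose, and 9 were higher in Actin-GFP than in Pou5f1-GFP MEFs and 0 lower. The 2 rises became 1 or 0 without any single array of OSCK or MEFs. Usp18 read 5.18 and 5.10 in OSCK, against 8.95 and 8.51 in Actin-GFP MEFs and 7.56 and 7.47 in Pou5f1-GFP MEFs, and was 7.89-fold lower (log2 -2.98 ± 0.20). Oas1g was 4.14-fold lower (log2 -2.05 ± 0.10) and Rsad2 at least 3.31-fold lower. Of 12 genes of MHC class I presentation 7 fell and 0 rose, among them H2-K1 (2.96-fold), B2m (2.39-fold) and the immunoproteasome gene Psmb8 (3.12-fold), and 7 were higher in Actin-GFP than in Pou5f1-GFP MEFs. Set against each type, 10 of the 12 were lower in OSCK and 0 higher than in Actin-GFP MEFs, but 3 were lower and 2 higher than in Pou5f1-GFP MEFs, and H2-K1 was not called against the second type (-0.60 ± 0.33). With 1 mean per line or type, 6 of the interferon-induced genes and 0 of the MHC genes were called lower. Lysosomal genes fell in 12 of 20 cases and rose in 0, with Lamp2 2.84-fold lower (log2 -1.51 ± 0.14) and Gpnmb 2.32-fold lower (log2 -1.22 ± 0.17).

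Of 14 striated muscle markers 10 fell and 2 rose, and 10 were higher in Pou5f1-GFP than in Actin-GFP MEFs. Of the 14, 4 were lower in OSCK than in Actin-GFP MEFs and 10 than in Pou5f1-GFP MEFs. With 1 mean per line or type 3 were called lower. Tnnc1, a troponin of slow and heart muscle, read 5.81 and 5.50 in OSCK, against 6.50 and 6.57 in Actin-GFP MEFs and 7.65 and 7.82 in Pou5f1-GFP MEFs. Tnnt2 was at least 3.83-fold lower, and Tnnt1 was 2.71-fold higher (log2 1.44 ± 0.15). Among 8 Schwann and neuron genes 4 fell, with Sox10 at least 4.74-fold lower and the endothelin receptor gene Ednrb 7.9-fold lower (log2 -2.98 ± 0.15), and 3 rose, with Stmn2 8.78-fold higher (log2 3.13 ± 0.11). Endothelial markers rose in 8 of 12 cases and fell in 2, beside 29.8% and 31.8% of all genes. Of the 12, 4 were below background on all MEF arrays and could hardly fall. Pecam1, the von Willebrand factor gene Vwf (5.2-fold) and the receptor gene Tek (at least 3.51-fold) were higher, and the receptor genes Flt1 (3.69-fold) and Emcn (1.91-fold) lower; Kdr was not called (-0.03 ± 0.19). Of 10 adipocyte and cartilage markers 5 fell and 0 rose (1 without OSCK replicate 2), with the lipase gene Lpl 4.53-fold lower (log2 -2.18 ± 0.15) and the cartilage collagen gene Col2a1 2.05-fold lower (log2 -1.04 ± 0.17).

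The choice of MEF mattered for some genes. OSCK differed from Actin-GFP MEFs in 8848 genes (56.6%), with 27.2% of all genes higher and 29.3% lower. It differed from Pou5f1-GFP MEFs in 9009 (57.6%), with 28% higher and 29.6% lower, and 7619 were called against both in the same direction. These comparisons share the OSCK arrays. The 2 types of MEF differed from each other in 1795 genes (11.5%), 832 higher in Actin-GFP MEFs (5.32%) and 963 lower (6.16%). In 67 genes (0.428%) OSCK was called higher than 1 type and lower than the other, with Actin-GFP MEFs above OSCK in 33 and Pou5f1-GFP MEFs above OSCK in 34, and 14 of the 67 were called against the mean of the MEFs.

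Among these 67 genes the types of MEF differed most in Rpl29, a ribosomal protein gene, which read 7.24 and 6.87 in OSCK, against 6.0 and 6.38 in Actin-GFP MEFs and 10.97 and 10.87 in Pou5f1-GFP MEFs. The acute phase gene Serpina3n read 6.57 and 6.66 in OSCK, against 9.64 and 9.86 in Actin-GFP MEFs and 5.81 and 6.03 in Pou5f1-GFP MEFs. Both had been called lower against the mean of the MEFs (adjusted p 9.08e-07 or less), although OSCK was above 1 type in each. Ptprv, a gene of a receptor phosphatase, read 6.35 and 6.41 in OSCK, against 7.77 and 7.88 in Actin-GFP MEFs and 5.11 and 5.04 in Pou5f1-GFP MEFs. The transporter gene Slco4a1 read 7.57 and 7.49 in OSCK, against 8.80 and 7.78 in Actin-GFP MEFs and 6.01 and 5.57 in Pou5f1-GFP MEFs. Hddc3 read 7.40 and 7.29 in OSCK, against 8.30 and 8.33 in Actin-GFP MEFs and 6.31 and 6.11 in Pou5f1-GFP MEFs. None of these 3 was called against the mean of the MEFs, with differences of -0.07 ± 0.11, 0.49 ± 0.22 and 0.08 ± 0.12. Slco4a1 was called higher without replicate 1 of Actin-GFP MEFs (0.75) or of Pou5f1-GFP MEFs (0.60) and with the slide as a block. Actin-GFP MEFs were at background for Rian, given above, and its difference of 0.31 ± 0.12 from the mean of the MEFs was called (adjusted p = 0.0305) although Pou5f1-GFP MEFs lay above OSCK; it was not called with median scaling (0.18) or without any single array (0.25 to 0.37) except Actin-GFP MEF replicate 2.

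The EGFP probe, which detects the GFP transgene, read 12.94 and 13.16 in OSCK, against 13.01 and 13.10 in Actin-GFP MEFs and 4.25 and 4.25 in Pou5f1-GFP MEFs. OSCK and Actin-GFP MEFs were high, and Pou5f1-GFP MEFs were at background. The level was 4.30 and 4.38 in ES cells and 12.50 and 12.71 in OSCE 8. Between OSCK and Actin-GFP MEFs it was not called (adjusted p = 0.986). Eif2s3y, a Y-linked gene, read 4.23 and 4.38 in OSCK, against 4.35 and 4.30 in Actin-GFP MEFs and 8.67 and 8.93 in Pou5f1-GFP MEFs, so its call against the mean of the MEFs rests on Pou5f1-GFP MEFs alone. Kdm5d, also Y-linked, read 4.24 and 4.26 in OSCK, against 5.51 and 5.52 in Actin-GFP MEFs and 6.52 and 6.55 in Pou5f1-GFP MEFs.

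**Figure D4:**
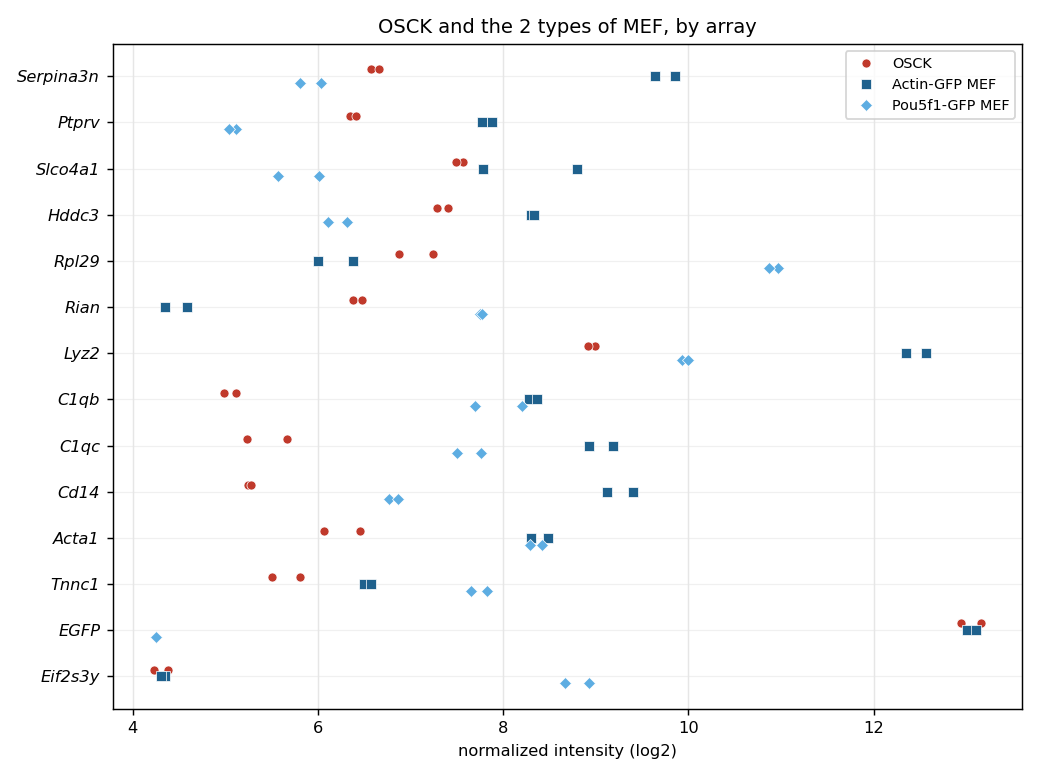
Normalized intensity (log2, x axis) of 14 genes on each array of OSCK (circles), Actin-GFP MEFs (squares) and Pou5f1-GFP MEFs (diamonds), 2 arrays a group. OSCK lies between the types of MEF for the upper 6 genes, below both for the macrophage genes shown and for Acta1 and Tnnc1, and with Actin-GFP MEFs for EGFP and Eif2s3y.

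OSCK was then set beside the ES cells of the same slides. Of the 4657 genes higher in OSCK than in MEFs 1031 were called between OSCK and ES cells, and of the 4967 lower genes 1039, beside 16.9% of all genes (8.13% higher and 8.8% lower in OSCK than in ES cells); the comparisons share the OSCK arrays. A gene that was not called is not shown to be equal. Among genes also called against MEFs, the largest rise over ES cells after EGFP was in Ipp, which read 11.67 and 11.55 in OSCK, 7.08 and 6.77 in ES cells and 6.86 to 7.37 over the MEF arrays, 25.7-fold higher than in ES cells, and OSCE 8 was at 10.71 and 10.71. The nuclear receptor gene Nr1h5 read 8.77 and 8.47 in OSCK, while ES cells (4.35 and 4.27) and MEFs (4.41 to 4.78) were at background. Haus1, of the spindle-binding augmin complex, read 9.69 and 10.03 in OSCK, 5.48 and 6.11 in ES cells and 8.20 to 8.80 in MEFs, and Tm7sf3 read 8.02 and 8.24 in OSCK, 4.56 and 4.79 in ES cells and 8.30 to 8.86 in MEFs, with a call against MEFs that was lost without OSCK replicate 1 (-0.38) or replicate 2 of either type of MEF (-0.36 and -0.40). Dppa3 read 6.17 and 6.02 in ES cells and was 9.63-fold higher in OSCK.

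Interferon-induced genes were lower in OSCK than in ES cells and in MEFs. Usp18 read 10.83 and 10.81 in ES cells and was 51.2-fold lower in OSCK. Ifit3 read 4.95 and 4.91 in OSCK, 10.35 and 10.32 in ES cells and 6.52 to 7.12 over the MEF arrays, and the chemokine genes Ccl5 (at least 34.1-fold) and Cxcl1 (31.6-fold) and the antiviral gene Oas1g (36.9-fold) were lower in OSCK than in ES cells. Over the list 18 of 20 interferon-induced genes and 10 of 12 of MHC class I presentation were lower in OSCK than in ES cells, and 1 of the 20 was higher. Against OSCE 8, 5 of the 20 were lower and 4 higher in OSCK, and 7 of the 12 were lower and 0 higher. The summed intensity of the 20 was 30835 and 29966 in OSCK and 24174 and 23259 in OSCE 8. It was 45627 and 47512 in ES cells and 27443 and 27924 in Pou5f1-GFP MEFs. The bright genes Ifitm1, Ifitm2 and Ifitm3, with means of 13.93, 12.80 and 12.33 in OSCK, made up most of its sum. The sums therefore say little of the other members. Of the 20, 13 were lower and 2 higher in OSCK than in Pou5f1-GFP MEFs. Eif2s3y read 9.04 and 9.46 in ES cells and was at background in OSCK.

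OSCE 8, the iPS line on the same slides, differed from OSCK in 2721 genes (17.4%), 8.84% higher and 8.56% lower in OSCK, and 2213 of these also differed between OSCK and MEFs. Of 10 naive transcription factors 9 were higher in OSCK than in OSCE 8 and 1 was lower. Esrrb read 9.91 and 9.77 in OSCE 8 and was 5.9-fold higher in OSCK, and Klf4 read 7.39 and 7.56 in OSCE 8, below the MEF arrays. The keratin gene Krt42 (9.15-fold), the maternal gene Khdc3 (9.88-fold), Dnajc6 (8.54-fold), Spink1 (7.06-fold), Rhox9 (6.04-fold) and Klhl13 (5.98-fold) were the largest rises over OSCE 8 among genes also called against MEFs. Streak genes went the other way, with 10 of 12 lower in OSCK than in OSCE 8 and 0 higher. T read 11.78 and 11.72 in OSCE 8 and 4.65 and 4.77 in ES cells, so that the level of OSCK lay between them. Fgf8 (at least 11.5-fold), Lhx1 (8.54-fold), Wnt8a (8.91-fold), Krt8 (13.8-fold) and Prtg (9.02-fold) were lower in OSCK than in OSCE 8, and the call of Fgf8 against MEFs was lost without OSCK replicate 1 (0.21).

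**Figure D5:**
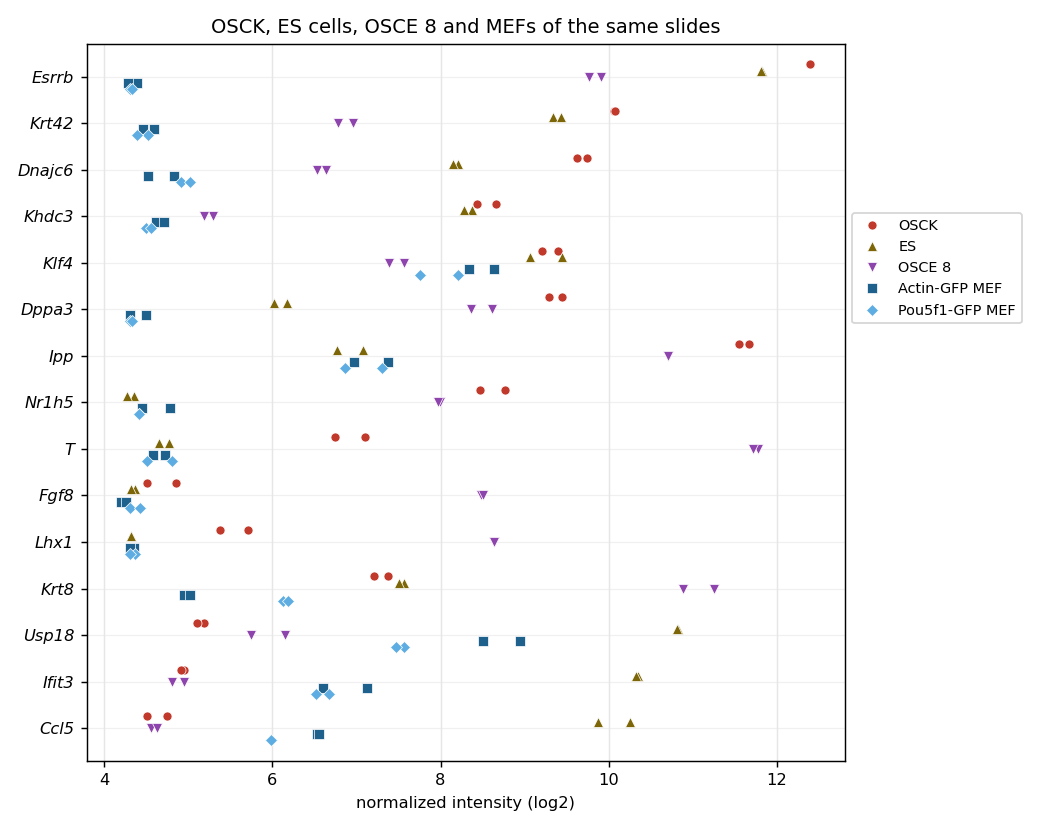
Normalized intensity (log2, x axis) of 15 genes on each array of OSCK (circles), ES cells and OSCE 8 (triangles up and down) and MEFs (squares and diamonds), all on the same 2 slides. OSCK lies above OSCE 8 for Esrrb to Klf4, above ES cells for Dppa3, Ipp and Nr1h5, and below OSCE 8 for T, Fgf8, Lhx1 and Krt8. For Usp18 and Ifit3 it lies below ES cells and MEFs.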

How the data were processed

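RNA of 16 samples was read on Illumina MouseWG-6 version 1.1 arrays, of which the 2 of OSCK and 4 of MEFs are compared here. Per the file headers, the deposited signals were exported from BeadStudio 3.2.6 without normalization, as a linear intensity per probe with a detection score, read as 1 minus the detection p, and a bead number (median 37). The genome build of the probes is not given in the sources used here. With limma 3.58.1 in R 4.3.3, intensities were background-corrected by normexp from the detection p with an offset of 16, quantile-normalized and taken to log2.

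Gene names are the file's target names, brought to RefSeq symbols directly (16079) or through a synonym (6654) and kept as in the file otherwise (11592), which gave 32089 genes. The probe with the highest mean over 16 arrays stood for a gene, and 15642 genes detected at p under 0.01 on at least 2 arrays were fitted with 1 mean per group over all 16 arrays. P-values were adjusted by Benjamini-Hochberg within a comparison. On data simulated for OSCK against MEFs over 15642 genes, 97% of genes changed 2-fold and 62% of those changed 1.5-fold were called. The simulation changed only a small part of the genes and drew its noise independently for each array. In the data 61.5% of genes were called and arrays of a slide deviated together, so these shares may not hold here.

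Same-numbered arrays of these groups share a slide and deviated together, with correlations of 0.262 to 0.389 in all 10 pairs of groups, so the replicate number pairs them. A bound was set against the lowest signal among detected probes of each array, at log2 4.89 to 5.05. The authors' deposited normalized values are a linear intensity by a method not given in the sources used here (medians of 47.5 to 50.6), and they were tested by limma after log2 as counts of probes, since their probe names could not be joined to genes. Alternatives were other background, normalization, filter, probe and array choices, the slide as a block, 1 mean per line and each replicate left out.

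The genes and lists (872 genes in 57 groups) were chosen with earlier results of these data known. Named genes are the 12 largest rises and falls, at most 4 called members of a group, members against their group, members not called where at most 5, and the 6 largest differences from ES cells, from OSCE 8 and between types of MEF. The 12 rises and falls were taken from called genes whose OSCK arrays do not overlap the MEF arrays, with predicted and clone names passed over. Acta2, Tagln, Thy1, Cd44, Lyz2, Csf1r, Tyrobp, Fcer1g and Kdm5d were added after their values were seen. In RefSeq promoter windows 7 motifs were searched over 56 lists with a window, each motif in each list, and the motif shares given in the text were picked from these after they were seen. A few genes that this rule names are not reported here. Array number limits precision.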

Additional observations from a re-analysis of the deposited data

Results flagged for a closer look

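Over the 4 MEF arrays, 299 named genes were examined for 1 array that stands apart from the other 3, and 10 were found. Chance finds about 1 in 20 groups, so 10 of 299 is no more than chance alone would give. Actin-GFP MEF replicate 2 stood apart for Dppa3 (4.50), Gadd45g (8.96), Nr1h5 (4.78) and Thy1 (12.25). Pou5f1-GFP MEF replicate 2 stood apart for Krt19 (4.50), Lama5 (5.40), Sall4 (4.31) and Zic1 (8.93), and Pou5f1-GFP MEF replicate 1 for Pim3 (8.81) and Wnt8a (4.27). OSCK lay on 1 side of all 4 MEF arrays for these genes except Krt19. The values given for Dppa3, Nr1h5, Krt19, Sall4 and Wnt8a are at background.

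In 9 named genes OSCK was called higher than 1 type of MEF and lower than the other, with a call between the types. Actin-GFP minus Pou5f1-GFP MEFs was 3.83 for Serpina3n, 2.75 for Ptprv, 2.50 for Slco4a1, 2.11 for Hddc3 and 1.74 for Laptm5. It was -4.73 for Rpl29, -3.30 for Rian, -1.61 for Igfbp2 and -0.98 for Rrm1. OSCK against the mean of the MEFs is therefore a mean of opposite differences in these genes.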

How the results depend on the processing

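OSCK against MEFs gave 9624 called genes, and between 8368 and 9218 without any 1 array of OSCK or MEFs, 10356 with the replicate block and 4661 with 1 mean per line, which has fewer values. Same-numbered arrays are paired by slide, and the replicate block changed no other count of calls by more than 1.5 times: 9574 against Actin-GFP MEFs, 9732 against Pou5f1-GFP MEFs, 2331 between the types of MEF, 3430 against ES cells and 3552 against OSCE 8. Without 1 array, the types of MEF differed in 1129 to 1719 genes (1795 with all), with 1140 without Actin-GFP MEF replicate 1 and 1129 without Pou5f1-GFP MEF replicate 1. OSCK differed from ES cells in 1740 to 2522 genes (2647 with all), the lowest without OSCK replicate 2, and from OSCE 8 in 1778 to 2613 (2721 with all), the lowest without OSCK replicate 1. Against Actin-GFP MEFs the range was 7731 to 8751 and against Pou5f1-GFP MEFs 7906 to 8859.

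The genes that differed at least 2-fold numbered 3653, 2415 without normexp, 2510 with an offset of 50 and 2728 as means over probes. Median scaling moved the median of all genes to -0.09 (OSCK against MEFs), from which shifts should be read, and the share of calls that were higher to 37.1%. For OSCK against Actin-GFP MEFs these were -0.12 and 35.8%, in place of 48.1%. As means over probes, Osr1 (-0.95) and Rbl1 (-0.13) turned round, since their probes disagree. Of 299 named genes, 213 kept their side of the threshold in all settings, and 69 called genes were not called in at least 1, mostly with 1 mean per line. Of 114 list counts 53 moved over 1.5 times with 1 mean per line and 0 to 7 in each other setting. The authors' normalized intensities called 13284 probes for OSCK against MEFs, beside 13149 from the normalization used here over all probes, a setting added after seeing the data. With 35.5% to 38.8% of probes detected per array, the others give only bounds, and 8 residual degrees of freedom limit small differences.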

Other observations

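In the RefSeq promoter windows 7 motifs were searched in each of 56 lists, and the following were picked because their shares were the highest, so they are descriptions with no test. Over the 37 lists with at least 8 windows, CACGTG, an E-box searched on both strands, had a median share of 8.3% and was highest in germ cell genes (5 of 8, 62.5%), beside 11.2% of the tested genes. TTTGAA, the core of a cell cycle element, had a median share of 12.5% and was highest in mitotic genes (8 of 12, 66.7%), beside 14.7% of the tested genes. CCAAT ranged from 11.1% to 83.3% with a median of 46.2%, beside 42.6% of the tested genes, and its highest share was shared by 2 lists, mitotic genes and mesenchymal transcription factors (10 of 12 each). Of tested mitotic genes 11 of 13 were higher in OSCK than in MEFs, and of tested mesenchymal transcription factors 19 of 23 were lower.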
